A study of Mus musculus with 2 samples.

Results

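The rod nuclei described here were 2953 nuclei of the Cre- library. They carry the authors' annotation Rods and fall in 9 of their clusters, numbered 9, 10, 16, 19, 20, 26, 34, 36 and 45. Rod-annotated nuclei of clusters 21, 25, 32, 38, 40 and 44 were left out, because rod genes did not lead those clusters in an earlier look at the same counts, so the members were chosen by their gene levels. The kept rods were 56.6% (exact binomial 95% interval 55.3 to 58.0) of 5214 rod-annotated nuclei and 40.1% (39.0 to 41.3) of 7357 Cre- nuclei, out of 14123 nuclei in the series. Every level below is a description with no test.

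The study asked how loss of the TET enzymes, which oxidise methylated cytosine, alters retinal cell identity, and profiled whole retinas of C57 BL/6J mice at postnatal day 21 by single-nucleus RNA-seq. Cre- animals, labelled WT, were the controls without the Cre transgene. Tet tcKO animals carried floxed Tet1, Tet2 and Tet3 and a Chx10-Cre-GFP transgene active in retinal progenitor cells, so the genes were removed before retinal cell types form. Retinas were pooled, at least 4 to a pool, from 2 nuclear dissociations of each genotype. No deposited column says which pool a nucleus came from, so a genotype was 1 sample and no value could be checked against replicates. Nuclei rather than whole cells were profiled, and a level here is a gene's share of their UMIs (unique molecular identifiers, 1 for each captured transcript).

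Rods are the photoreceptors of dim light and the most numerous cells of the mouse retina. NRL, a leucine zipper factor, and its target NR2E3, a nuclear receptor, set the rod programme and hold cone genes down, while CRX and OTX2, paired-type homeodomain factors, act in rods and cones alike. In the outer segment, light-activated opsin drives the G protein transducin, transducin relieves inhibition of the phosphodiesterase PDE6, and the fall in cyclic GMP closes a cation channel, after which arrestin, RGS9 and guanylate cyclases restore the dark state.

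The kept rods held 4344641 UMIs, and a nucleus had 547 to 8369 of them (median 1232) and a median of 952 detected genes. The deposited mitochondrial percentage had a median of 9.51, while the 13 mitochondrial genes in the matrix took 5.71% of their UMIs. Left-out rod nuclei were shallower, at a median of 877 UMIs, with a deposited mitochondrial median of 14.7%. Cre- and Tet tcKO libraries shared 1 cell barcode. The automatic threshold of a doublet score called 0 nuclei, and whether doublets were few or were missed was not tested. No doublet was removed, and the levels without the 357 highest doublet scores were computed as an alternative.

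CRX binds DNA at sites with the core TAATCC, and the promoters of several rod genes hold these letters. Promoter windows of 300 bases, from 250 before to 50 after the start, came from RefSeq (GRCm38.p6) and were placed on GRCm39 by exact sequence. The stretches below are a selection from the listed genes with these letters, whose rod values follow. Otx2, Samd7, Casz1, Gnb5, Gucy2e and Gucy2f also held the letters and are not shown. Each is 26 bases, 5′ to 3′, on the strand that reads TAATCC, which stands in capitals.
Cnga1, chr5:72800308-72800333, minus strand, in an annotated Cnga1 exon: tgtctcatttTAATCCtaatgataaa
Samd11, chr4:156340454-156340479, plus strand, in an annotated Samd11 UTR: ggagccgggcTAATCCagggctggca
Crx, chr7:15613886-15613911, plus strand, overlapping the Crx UTR by 8 bases: tctggaagggTAATCCcagggaaggt
Gngt1, chr6:3993954-3993979, minus strand, in an annotated Gngt1 UTR: agcttcttcaTAATCCcccctaatat
Cngb1, chr8:96033223-96033248, minus strand, upstream of the gene: tagtgccaatTAATCCtggctgggtc
Sag, chr1:87731305-87731330, minus strand, upstream of the gene: ttttttttttTAATCCtaaacctctt
Guca1a, chr17:47711573-47711598, plus strand, inside the gene Gm50461: tgcagtctgcTAATCCcttcttaaca
Prcd, chr11:116547924-116547949, plus strand, overlapping a Prcd UTR by 17 bases: ttgaacgtccTAATCCcttcccagga
Abca4, chr3:121838041-121838066, minus strand, upstream of the gene: ccttcaagcaTAATCCccctctaatt

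TAATCC or its reverse complement GGATTA was present in the windows of 15 of 38 genes with a table entry among the joined lists of rod markers, transcription factors, phototransduction, recovery and outer segment genes, which is 39.5%. Over 27025 genes with a window the share was 8.14%, and over the 8548 of them tested against nuclei annotated neither Rods nor Cones it was 7.12%. It was 12.8% of 663 genes at least 2-fold higher in kept rods than in nuclei annotated neither Rods nor Cones, and 5.93% of 371 genes at least 2-fold lower. Against all other Cre- nuclei, only 44 higher genes had a window and 2 of them held it (4.55%). The letters TGCTGA or TCAGCA, part of the site that NRL binds, stood in 26.3% of the joined lists, in 21.7% of all genes with a window and in 18.3% of the 8548 tested. They stood in 18.1% of the 663 higher genes and 22.9% of the 371 lower genes. The Nrl and Nr2e3 windows held neither TAATCC nor TGCTGA on either strand. A match is a run of letters, not a bound site.

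All 6 rod markers were higher in kept rods than in every other annotated class except Cones. On GRCm39, Nrl lies at chr14:55756435-55762438, Nr2e3 at chr9:59850054-59867942, Cnga1 at chr5:72761039-72801618, Reep6 at chr10:80165787-80172275, Samd11 at chr4:156331423-156341182 and Vtn at chr11:78388717-78393156, all of them protein-coding genes. Nrl stood at 478 CPM (UMIs of the gene per 1000000 UMIs, Poisson 95% interval 458 to 499) in kept rods and at 268 CPM over the 4404 other Cre- nuclei, a log2 ratio of 0.84 (0.75 to 0.93). Nr2e3 stood at 339 against 176 CPM, a log2 ratio of 0.94 (0.83 to 1.05). Both encode factors that set rod fate. Cnga1, the α subunit of the rod cyclic nucleotide-gated channel, had 1025 against 579 CPM, a log2 ratio of 0.82 (0.76 to 0.88). Reep6, which encodes an endoplasmic reticulum protein of rods, had 342 against 193 CPM. Samd11, a SAM domain protein of rod nuclei, had 617 against 320.3 CPM, and its log2 ratio of 0.95 (0.87 to 1.03) was the highest of the 6. Vtn, which encodes the secreted protein vitronectin, had 281 against 166 CPM and the lowest of the 6 ratios, at 0.76.

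None of the 6 markers reached 2-fold over all other Cre- nuclei, which include the 2261 left-out rods and the 265 Cones. Among 10830 genes at 10 CPM or more in either population, 59 (0.545%) were at least 2-fold higher in kept rods and 139 (1.28%) at least 2-fold lower. Against the 1878 nuclei annotated neither Rods nor Cones, all 6 markers passed 2-fold, with a median log2 ratio of 1.49 and a range of 1.42 to 1.70. In that comparison 895 of 10940 genes (8.18%) were at least 2-fold higher and 499 (4.56%) at least 2-fold lower. This split depended on counting and scaling. It was 505 higher and 640 lower when each gene was counted once per nucleus, and 728 and 606 under TMM scaling. The median log2 ratio over all genes was 0.092 in the first comparison and 0.11 in the second. Since rod genes chose the clusters, nothing is read from the markers' share against these backgrounds. The same holds for the rod lists below, also where the 6 markers are left out, because rod genes tend to be high together.

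**Figure D1:**
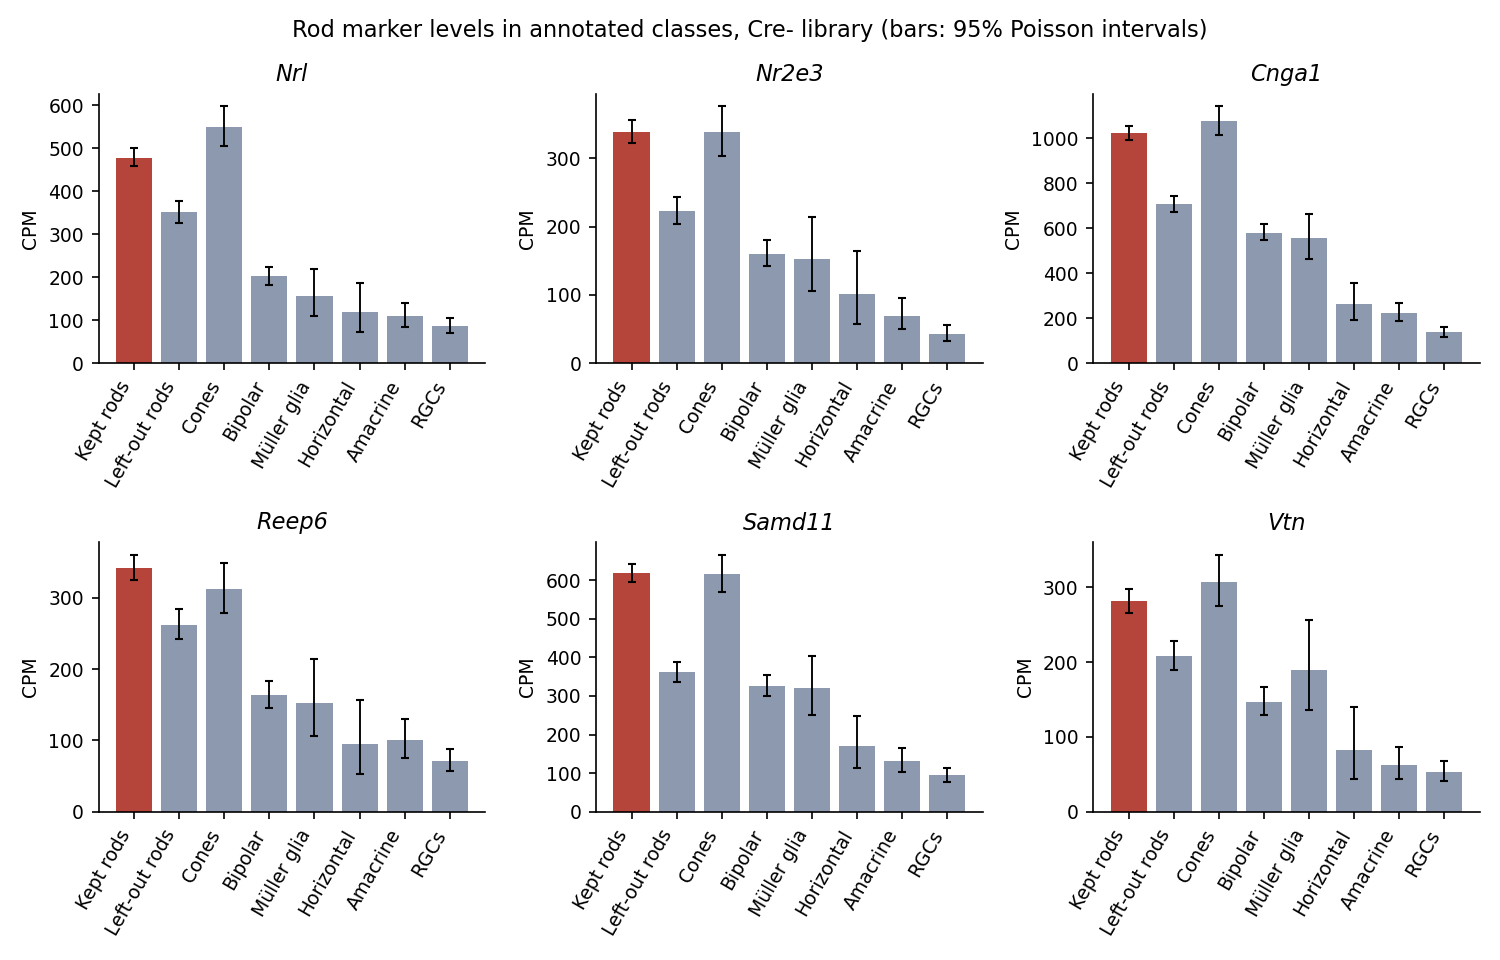
Level of each rod marker, in CPM, in kept rods (red) and in the other annotated classes of the Cre- library (grey), with 95% Poisson intervals that cover counting error only. Kept rods and Cones stand together at the top for all 6 genes, left-out rods come next, and amacrine cells and retinal ganglion cells (RGCs) are low.

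Summed over the 6 markers, kept rods held 3082 CPM (3030.4 to 3135). Nuclei annotated Cones held 3201 CPM (3092 to 3312), left-out rods 2112, bipolar nuclei 1581, Müller glia 1530.2, horizontal cells 834, amacrine cells 698 and RGCs 485 CPM. Kept rods and Cones had overlapping intervals, so the rod markers did not separate these annotated classes. Cone genes separated them little. A summed list of 12 cone genes stood at 2161 CPM (2118 to 2205) in kept rods and at 2308 CPM (2216 to 2402) in Cones. Arr3, cone arrestin, had 764 against 880.4 CPM, and Opn1sw, the short-wavelength cone opsin, 78.0 against 112 CPM, log2 ratios of -0.20 (-0.31 to -0.097) and -0.53 (-0.84 to -0.21). Gnb3, the cone transducin β subunit, was higher in kept rods than in Cones, at 345 against 236 CPM. Of 10 cone genes at 10 CPM or more, 0 differed by 2-fold between kept rods and Cones, which is near the background of 1.85% of 10976 genes higher in kept rods and 1.4% lower. Since rod genes chose the clusters, their level over the other classes is no check of the label, and on these lists kept rods and Cones were close.

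The share of nuclei with a marker UMI gave the same order of classes. After each nucleus was thinned to 500 UMIs, 80.4% (78.9 to 81.8) of kept rods had a UMI of at least 1 marker, against 66.1% of left-out rods and 81.5% of Cones. Amacrine nuclei, which should lack these transcripts, had 27.0% (22.8 to 31.7), at a median of 1065 UMIs before thinning against 1232 in kept rods. Marker RNA was thus found in classes that should lack it, even though the authors had removed ambient RNA. Without thinning the shares were 97.4% and 52.9%, and 77 kept rods had no UMI of any marker. By gene, the thinned share in kept rods was 41.8% for Cnga1, 26.7% for Samd11, 23.1% for Nrl, 16.7% for Nr2e3, 16.5% for Reep6 and 14.3% for Vtn. The matching amacrine shares were 9.43%, 6.20%, 5.21%, 3.23%, 5.96% and 2.48%, each below the kept rods.

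**Figure D2:**
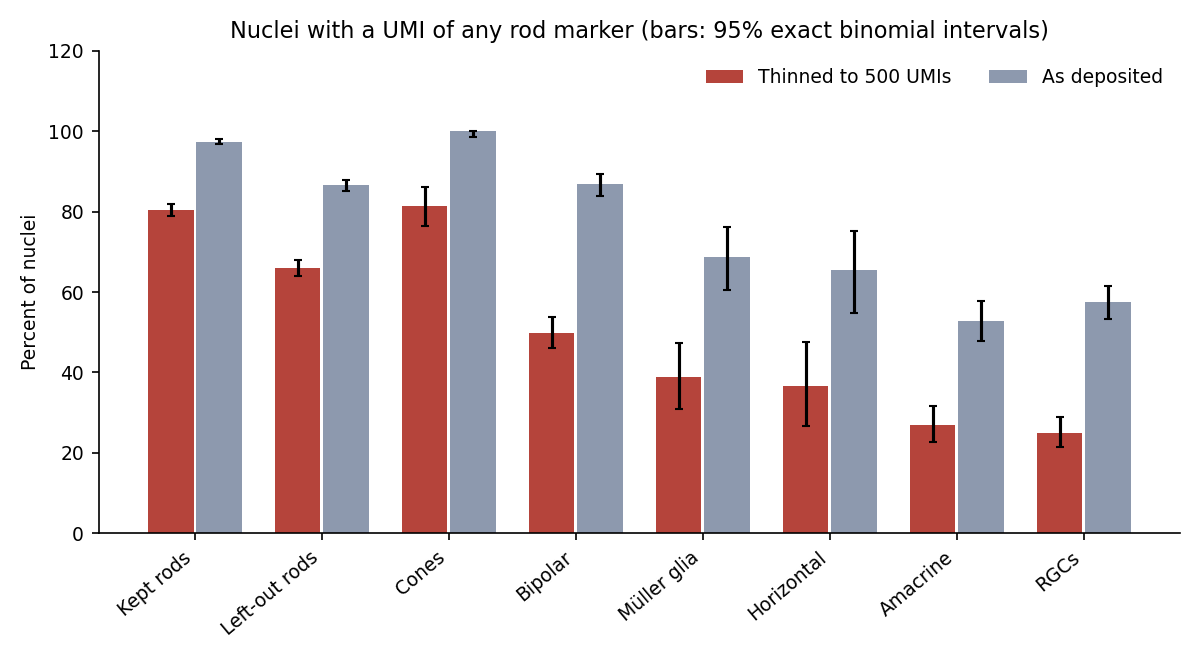
Percent of nuclei with at least 1 UMI of any of the 6 rod markers, by annotated class, after thinning to 500 UMIs (red) and as deposited (grey), with exact binomial 95% intervals. Kept rods and Cones lead after thinning at 80.4% and 81.5%, while amacrine nuclei still show 27.0%.

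Listed transcription factors of the rod programme were higher in kept rods than in the non-photoreceptor nuclei in most cases and mostly lower than in Cones. The 15 factors include the markers Nrl, Nr2e3 and Samd11. Of the 12 others, 11 had a log2 ratio above 0 against all other Cre- nuclei, as did 60% of all genes tested, with a median of 0.64. Against nuclei annotated neither Rods nor Cones, 8 of the 12 were at least 2-fold higher, against 8.18% of all genes. Against Cones, 3 of the 15 were above 0, against 47.1% of all genes, with a median of -0.20 against -0.028 for all genes. Cones were deeper, at a median of 3736 UMIs against 1232 in kept rods. Their deposited mitochondrial median was 7.84% against 9.51%. The part of depth in the ratios to Cones was not tested. Crx stood at 243 CPM in kept rods, 157 in all other nuclei and 104 in the non-photoreceptor nuclei, and Otx2 at 248, 157 and 124 CPM. Samd7, a partner of Samd11 in rod chromatin, had 99.9 CPM against 29.7 in non-photoreceptor nuclei, a log2 ratio of 1.75 (1.45 to 2.06) and the highest of the list. Esrrb, an orphan nuclear receptor of rods, had 417 against 177 CPM, and the zinc finger factor Casz1 981 against 463. Rorb, a nuclear receptor that acts upstream of Nrl and is also used by other retinal neurons, was the exception, at 473 CPM in kept rods and 516 in non-photoreceptor nuclei. Neurod1 and Mef2d had log2 ratios of 0.63 and 0.44 against the non-photoreceptor nuclei, below 2-fold.

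All 10 phototransduction genes, the marker Cnga1 among them, were higher in kept rods than in all other nuclei. Their median log2 ratio was 0.68, with none past 2-fold, and it was 0.42 when a gene was counted at most once in a nucleus. Against non-photoreceptor nuclei, 8 of the 9 genes other than Cnga1 passed 2-fold, against 8.18% of all genes, with a median of 1.44. The choice of clusters by rod genes favours such a share, so nothing is read from it. Against Cones, 2 of 10 were above 0, against 47.1% of all genes, with a median of -0.21. The transducin subunit genes Gnat1, Gnb1 and Gngt1 stood at 1255, 914 and 940.0 CPM in kept rods and at 417, 416 and 234 CPM in non-photoreceptor nuclei. Gngt1 had the highest log2 ratio of the list in that comparison, at 2.00 (1.90 to 2.11). The phosphodiesterase genes Pde6a and Pde6b, which encode its catalytic subunits, had 865 and 1752 CPM, and the inhibitory subunit gene Pde6g had 479 CPM, against 306, 590.4 and 177 CPM in non-photoreceptor nuclei. Cngb1, the β subunit of the channel formed with Cnga1, had 360.0 against 161 CPM. The exchanger gene Slc24a1, which clears calcium from the outer segment, did not reach 2-fold, at 469 against 299 CPM (log2 ratio 0.65).

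Genes that end the light response were also above the non-photoreceptor nuclei and mostly below Cones. All 11 were above 0 against all other nuclei and passed 2-fold against non-photoreceptor nuclei, as did 8.18% of all genes. Against Cones, 1 of 11 was above 0, against 47.1% of all genes, with a median of -0.13. Sag, rod arrestin, had 2645 against 1014 CPM, and Grk1, the opsin kinase, 228 against 111. Rgs9, the protein that speeds transducin shut-off, had a log2 ratio of 1.25, its membrane anchor Rgs9bp 1.77 and their partner Gnb5 1.31. Guca1a and Guca1b, calcium sensors of the guanylate cyclases, stood at 449.5 and 384 CPM in kept rods and at 144 and 118 CPM in non-photoreceptor nuclei. The cyclase genes Gucy2e and Gucy2f had 154 and 92.5 CPM, with log2 ratios of 1.19 and 1.36.

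**Figure D3:**
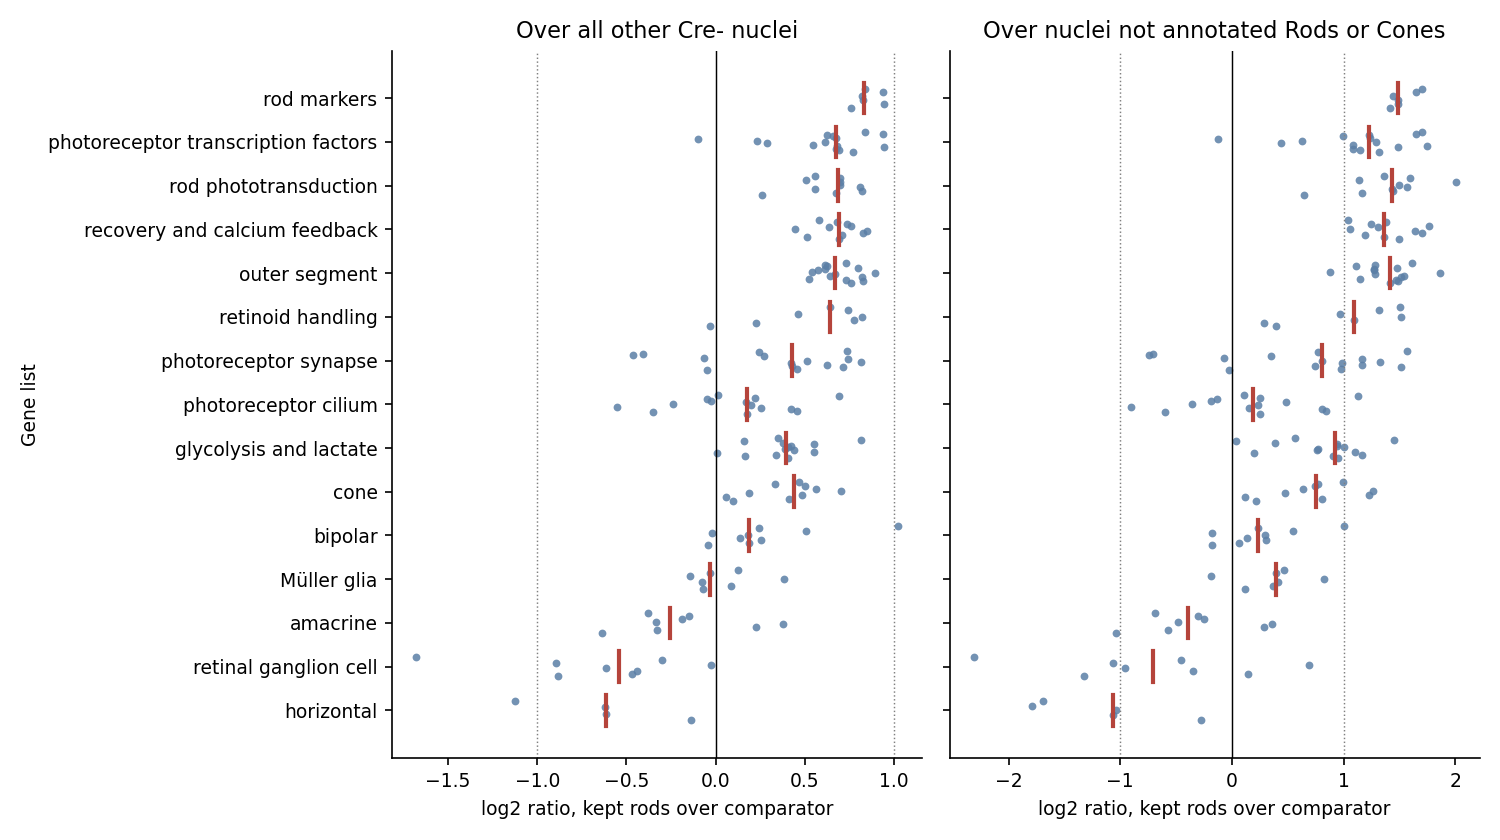
Log2 ratio of each listed gene at 10 CPM or more (points), kept rods over all other Cre- nuclei (left) and over nuclei annotated neither Rods nor Cones (right), with the list median (red bar) and dotted lines at 2-fold. Medians of the phototransduction, recovery and outer segment lists lie between 0.67 and 0.69 on the left and between 1.36 and 1.44 on the right, and the ganglion and horizontal cell lists lie below 0.

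In the outer segment list, which shares Reep6 and Vtn with the markers, all 15 genes were above 0 against all other and against non-photoreceptor nuclei. Against the latter, 12 of the 13 others passed 2-fold, against 8.18% of all genes. Against Cones, 4 of 15 were above 0, against 47.1% of all genes, with a median of -0.16. The disc rim genes Prph2 and Rom1 had 1014 and 918 CPM in kept rods against 331 and 378. Prcd, a small disc protein, had the highest log2 ratio of the list in the first and second of these comparisons, 0.90 and 1.86. Abca4, the disc flippase for retinal, had 821 against 287 CPM. Tulp1, a protein transport factor, was the 1 gene under 2-fold, at 0.88. In the retinoid list, 7 of 9 genes reached 10 CPM and 4 of these passed 2-fold against non-photoreceptor nuclei, against 8.18% of all genes. Rdh12, which reduces retinal in photoreceptors, stood at 270.0 against 95.3 CPM. Rpe65, the isomerase of the pigment epithelium, had 3.22 CPM in kept rods from 14 UMIs.

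Synapse and cilium genes were mixed. Of 15 synapse genes, 11 were above 0 against all other and against non-photoreceptor nuclei, where 60% and 57.4% of all genes were. Past 2-fold against non-photoreceptor nuclei were 5, against 8.18% of all genes. Against Cones, 5 of 15 were above 0, against 47.1% of all genes, with a median of -0.21. The 5 past 2-fold were Cplx4, Cacna1f, Cabp4, Slc17a7 and Unc119, with log2 ratios of 1.57, 1.16, 1.33, 1.17 and 1.51. Cplx4 is the complexin of ribbon synapses, Cacna1f their calcium channel, Cabp4 its regulator, Slc17a7 the vesicular glutamate transporter and Unc119 a lipid-binding transport protein. The general active zone genes Bsn and Pclo were lower in kept rods, at 75.0 against 123 and 517 against 865 CPM. Of 14 cilium genes, 1 passed 2-fold, a share near the 8.18% of all genes. This was Rpgrip1, the scaffold of the connecting cilium, at 4884 against 2233 CPM. Rpgr, its binding partner, had 162 against 150.5 CPM, and the kinesin gene Kif3a was lower, at 74.8 against 139.8.

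Rods run on aerobic glycolysis. All 14 measured genes of the glycolysis and lactate list were above 0 in both comparisons, where 60% and 57.4% of all genes tested were, and 4 passed 2-fold against non-photoreceptor nuclei, a share set against 8.18% of all genes. Hk2, the hexokinase of photoreceptors, had 232 CPM against 85.1, a log2 ratio of 1.45 (1.27 to 1.63). Its paralogue Hk1 had 0.57. Ldha, which makes lactate, had 304 against 141 CPM, while Ldhb had 35.7 against 31.0.

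Rod nuclei of the mouse carry inverted chromatin with little lamin A. Lmna had 9.21 CPM (6.58 to 12.5) in kept rods and 19.8 in non-photoreceptor nuclei, a log2 ratio of -1.11 (-1.69 to -0.54). Lbr, the lamin B receptor, had 16.1 and 15.0 CPM. Suv39h2, a histone H3 lysine methyltransferase, was the 1 gene of 12 on this list past 2-fold against all other nuclei, at 13.3 against 5.58 CPM (log2 ratio 1.26, 0.65 to 1.88). Of all genes, 0.545% were at least 2-fold higher in that comparison. Suv39h2 had 58 UMIs in kept rods and reached the filter of 10 CPM only there, so nothing is read from this count. Of the enzymes that oxidise methylcytosine, Tet3 had 199 CPM in kept rods, Tet2 102 and Tet1 40.3, with log2 ratios over all other nuclei of 0.23 (0.11 to 0.36), -0.062 (-0.23 to 0.11) and -0.48 (-0.75 to -0.22). Tet3 was thus above, Tet1 below and Tet2 near the level of the other nuclei. Over the whole list of DNA methylation genes, 5 of 11 tested were above 0, against 60% of all genes. The list median was -0.0047, against 0.092 for all genes. The methyltransferase gene Dnmt3a had 438 against 474 CPM.

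Among genes at 100 CPM or more in kept rods, Slco4a1, an organic anion transporter, had the highest ratio over all other nuclei and alone passed 2-fold, at 186 against 92.1 CPM (log2 ratio 1.02, 0.87 to 1.17). Samd11 and Nr2e3 also stood among the 15 highest, with the long noncoding RNA Vax2os at 660.1 against 344 CPM, the transporter gene Slc38a3 at 553 against 301, the membrane scaffold gene Mpp4 at 782 against 431 and the phosphatidylinositol transfer gene Pitpnm1 at 733 against 400.1. The 15 ratios ran from 0.85 (Fance) to 1.02. The lowest ratios among genes at 100 CPM or more in the other nuclei were those of 6330411D24Rik (41.4 against 165 CPM), the GTPase activator gene Srgap1 (log2 ratio -1.70) and Rbpms, an RNA-binding protein of ganglion cells (-1.68). Kcnd2, a potassium channel, and Grin2a, an NMDA receptor subunit, had 154 against 355 and 86.3 against 196 CPM.

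Gene length moved with these ratios. The median genomic span was 35.3 kb over genes tested against all other nuclei, 11.2 kb for the 59 higher genes and 117 kb for the 139 lower ones. Against non-photoreceptor nuclei it was 10.7 kb for the 895 higher and 119 kb for the 499 lower genes. Genes spanning over 100 kb, a limit chosen after the values were seen, took 37.8% of UMIs in kept rods, 39.1% in Cones, 43.0% in bipolar, 46.2% in amacrine and 47.8% in RGC nuclei. The part of length in the ratios was not tested.

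Transcripts of other classes were present in kept rods. The bipolar genes Trpm1 and Prkca stood at 797 and 1375 CPM in kept rods, against 1742 CPM for Trpm1 in bipolar nuclei and 227 in amacrine nuclei. The whole bipolar list separated the classes less. It summed to 3781 CPM in kept rods, 5876 in bipolar nuclei, 3609 in Müller glia, 3584 in Cones, 2139 in amacrine nuclei and 1214 in RGCs. Over all other nuclei, where 60% of all genes were above 0 with a median of 0.092, 7 of 9 bipolar genes were above 0, with a median log2 ratio of 0.19. Vsx1, a homeodomain factor of cone bipolar cells, was past 2-fold at 12.2 against 6.00 CPM, as were 0.545% of all genes. It reached the filter of 10 CPM only in kept rods. All 10 cone genes tested were above 0, with a median of 0.44. Lists of amacrine, ganglion and horizontal cells were lower in kept rods, with medians of -0.26, -0.54 and -0.62, and 2 of 8, 0 of 8 and 0 of 4 genes above 0. Of these, Rbpms and Onecut1, a factor of horizontal cells, were past 2-fold lower, as were 1.28% of all genes, Onecut1 with a log2 ratio of -1.12. Müller glia genes were near even, at a median of -0.03, with Glul, glutamine synthetase, at 566 against 519 CPM. Immediate early and stress lists had medians of 0.1 and 0.071 over 5 and 3 genes tested. Microglial, astrocyte, vascular and pigment epithelial lists held 2, 1, 4 and 2 tested genes, with medians of 0.042, 0.41, 0.095 and 0.31, and the microglial genes C1qa and Csf1r stood at 2.07 and 2.76 CPM in kept rods. The part of these other transcripts in the rod values was not tested.

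Malat1, a long noncoding RNA of nuclei, took the most UMIs of kept rods, 26404 CPM, and was lower there than in the other nuclei, at 40064 CPM. Meg3, another noncoding RNA, was also lower, at 4488 against 9520.3 CPM. Cdh23, a cadherin gene, came next to Malat1 in UMIs, at 17252 against 16001 CPM. Psap ends beside the end of Cdh23 and Vsir lies inside it, both on the other strand, and whether counting used strand was not given in the sources used here, so reads of these genes cannot be told apart. Of the 15 genes with the most UMIs, 7 were mitochondrial, led by mt-Co3 at 17098 CPM against 16268 in all other nuclei and 7071 in non-photoreceptor nuclei. The ratio of mt-Co3 to all other nuclei changed sign when nuclei were averaged singly and under TMM and median-of-ratios scaling.

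The kept clusters were next compared with one another. In 8 of them, with 205 to 547 nuclei and median depths of 934 to 2603 UMIs, few genes differed by 2-fold from the other kept rods. Their summed markers ran from 2609.8 CPM (2395 to 2839) in cluster 36 to 3613 CPM (3449 to 3782) in cluster 16, intervals that do not overlap. Cluster 10 had 3383, cluster 9 3114, cluster 26 3096, cluster 19 2856, cluster 34 2854 and cluster 20 2826 CPM. Left-out rod clusters held 1792 to 2225 CPM, below all of these, and that choice rested on rod genes. When each gene was counted once per nucleus, the marker log2 ratio of cluster 16 over the other kept rods went from 0.26 to 0.0066 and that of cluster 34 from -0.13 to 0.13, so the order of the 8 clusters depends on how nuclei of unequal depth are counted. Against the other kept rods, among 2260 to 2429 genes at 100 CPM or more in either and counting those with 20 UMIs or more on the higher side, clusters 19, 26 and 34 had 0 genes past 2-fold. Cluster 9 had 0.0877% higher and 0.0438% lower, and cluster 10 had 0.126% higher and 0.0421% lower. Clusters 16 and 20 had no higher gene, and 0.0823% and 0.131% lower. The highest shares were in cluster 36, the smallest of the 8, with 0.209% higher and 0.837% lower.

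Between the highest and the lowest of the 8 clusters, Nrl ran from 413 CPM in cluster 9 to 573 in cluster 16 and Nr2e3 from 276 in cluster 34 to 405 in cluster 16. Cnga1 varied least of the markers, from 892 in cluster 34 to 1103 in cluster 10. Samd11 varied most, from 447 in cluster 36 to 813 in cluster 16, a log2 ratio of 0.86 (0.53 to 1.20). Of the 6 markers, 5 were highest in cluster 16. So were the cone genes Arr3 and Gnb3, but not Opn1mw, Cngb3 and Thrb. The share of all genes highest in cluster 16 was not computed, so nothing is read from this count. No phototransduction gene and no listed transcription factor at 100 CPM or more spanned 2-fold over the 8 clusters, with medians of the highest-to-lowest log2 ratio of 0.39 and 0.48. Over all 2121 genes at 100 CPM or more in kept rods, 10% spanned 2-fold and the median was 0.59. In the outer segment list 2 of 14 did, Prcd from 76.9 to 222 CPM and Cdhr1, a protocadherin of the segment base, from 67.3 to 157. Elsewhere on the lists, 2 of 7 bipolar genes did, Grm6 among them, and 1 each of the glycolysis (Gpi1, 1 of 10), DNA methylation (Tet2, 1 of 3), amacrine (Slc6a9, 1 of 3) and vascular (Flt1, 1 of 1) lists. Tet2 ran from 43.3 CPM in cluster 36 to 120.5 in cluster 10, a log2 ratio of 1.48 with a wide interval (0.44 to 2.69). A highest-to-lowest ratio over 8 clusters is above 1 by its making.

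Malat1 had the opposite order at the ends of this range. It was lowest in cluster 16, at 17882 CPM, and highest in cluster 36, at 36166 CPM. Several genes with the highest rod ratios had their highest level in cluster 16 and their lowest in cluster 36, among them Slc38a3 (793 and 346 CPM), Pitpnm1 (1004 and 442), Mpp4 (1066 and 490.2) and Slco4a1 (274 and 120.2). This order was not particular to them. The cone genes Arr3 and Gnb3 and the glycolysis genes Gpi1 and Ldha had it too, while Cplx4 and Slc24a1 had the reverse. The share of all genes with this order was not computed. Genes spanning over 100 kb took 34.4% of UMIs in cluster 16 and 41.0% in cluster 36, and median depths were 1514 and 937 UMIs. The part of length and depth in these differences was not tested. Genes leading a cluster had the highest ratios to the other kept rods. Only genes at 100 CPM or more and 20 UMIs or more in that cluster were ranked. A gene could thus pass where it was high without passing in the other kept rods. The intervals do not allow for this choice. The clock gene Nr1d1 led cluster 16 with Fbxl12 and Cfp. Nr1d1 had 106 against 54.2 CPM in the other kept rods (log2 ratio 0.97, 0.51 to 1.41), and 48 of 267 nuclei held it.

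Ranked under the same limits, the genes leading the other large clusters were of unlike kinds. Cluster 20 was led by the cyclase gene Gucy2f, at 158 against 82.3 CPM, and 82 of 443 nuclei held it. Cluster 34, the largest, was led by the ribosomal protein genes Rpl36a and Rpl23a, with log2 ratios of 0.83 and 0.82, and had the highest deposited mitochondrial median of the 8, 11.3%. Cluster 26 was led by Fgd1, a guanine nucleotide exchange factor gene, at 157 against 80.8 CPM. In some clusters 1 nucleus held a large share of a leading gene's UMIs. Of 65 Gm4117 UMIs in cluster 9, 61 were in 1 nucleus, as were 79 of 114 for Ankrd6. Mfap3l in cluster 10 had 37 of 50 UMIs in 1 nucleus, Snd1 in cluster 36 had 27 of 44 and Astn2 in cluster 19 had 95 of 216. Fam98c in cluster 10 did not, with at most 1 UMI in any of 44 nuclei, at 106 against 36.9 CPM.

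**Figure D4:**
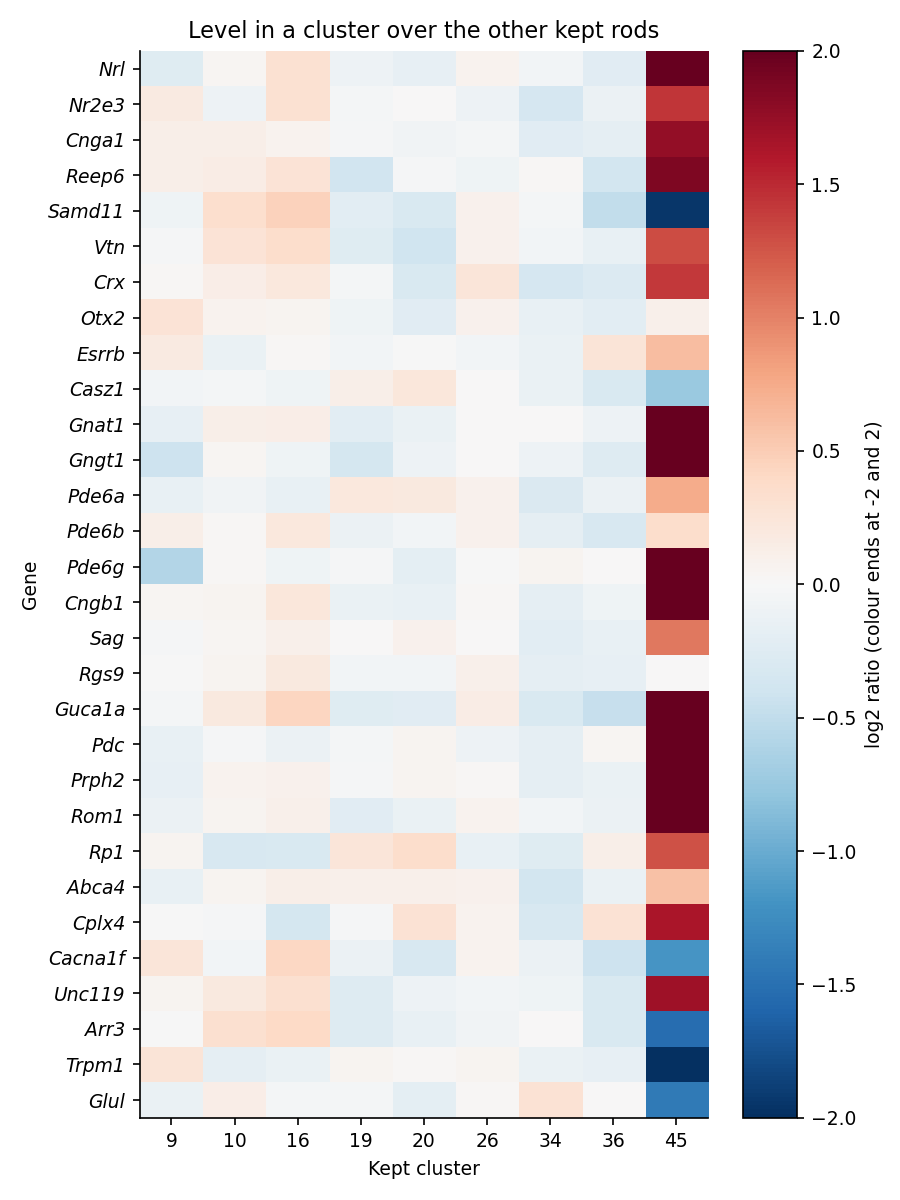
Log2 ratio of 30 rod, cone, bipolar and glial genes in each kept cluster over the other kept rods, with colours ending at -2 and 2. The 8 large clusters are mostly pale, and cluster 45 is dark red for most phototransduction and outer segment genes and blue for Samd11, Arr3 and Trpm1.

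Cluster 45 stood apart. It held 22 nuclei and 18728 UMIs, at a median of 745 UMIs per nucleus, so 100 CPM there stands for about 1.87 UMIs and its low values are counts of a few molecules. Summed rod markers reached 9024 CPM (7715 to 10492), a log2 ratio of 1.56 (1.33 to 1.78) over the other kept rods. Nrl had 2616 CPM from 49 UMIs, Cnga1 3417 from 64 and Reep6 1228 from 23. Samd11 went the other way, at 160.2 CPM from 3 UMIs against 619 CPM (log2 ratio -1.95, -4.23 to -0.40).

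Phototransduction genes were far higher in cluster 45, with 8 of 10 past 2-fold against 10.2% of 2121 genes at 100 CPM or more in kept rods. Of 3542 genes at 100 CPM or more in either population, 1.16% were past 2-fold higher with 20 UMIs or more. Gngt1 led at 20397 CPM against 856 (log2 ratio 4.58, 4.42 to 4.73), and all 22 nuclei held it, with at most 40 of 382 UMIs in 1 nucleus. Pde6g had 6995 against 450.3 CPM, also in 22 of 22 nuclei. Gnat1 and Gnb1 had log2 ratios of 2.92 and 2.77, while Pde6a and Pde6b had 0.74 (0.14 to 1.28) and 0.36 (-0.12 to 0.79). Subunits of 1 complex thus stood unequally high. In the recovery list 7 of 10 genes at 100 CPM or more passed 2-fold, led by Rcvrn (recoverin) at 3.85 and Pdc (phosducin) at 3.51, and in the outer segment list 11 of 14 did, led by Rom1 at 3.03. Of 10 glycolysis genes 6 passed 2-fold, Pkm and Ldha with 1.97 and 1.83.

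Malat1, Meg3 and Rpgrip1, named here after their values were seen, were low in cluster 45. Malat1 had 8597 CPM against 26481, Meg3 1175 against 4502 and Rpgrip1 1655 against 4898. Ribosomal protein genes took 3.14% of UMIs, against 0.792 to 1.24% in the 8 large clusters. Genes spanning under 10 kb took 30.3%, against 12.6 to 14.5%, and those over 100 kb 21.1%, against 34.4 to 41.0%. The deposited mitochondrial median was 14.1%, against 8.08 to 11.3%. Summed bipolar genes stood at 1015 CPM from 19 UMIs, against 3335 to 4312 CPM in the large clusters, and Grm6 and Gnat2 were at 0 UMIs. Summed cone genes were not low, at 2402.8 CPM from 45 UMIs, against 1966 to 2402.5 CPM in the large clusters. Of the 5 cone genes at 100 CPM or more in kept rods, 3 were at least 2-fold lower in cluster 45. These 5 held 14 of the 45 cone UMIs there. The rest came from listed cone genes under 100 CPM in kept rods, so the 5 do not stand for the list. The part of gene length, ribosomal and mitochondrial RNA in these values was not tested. Another 651 of the 3542 genes (18.4%, or 30.7% of the 2121) were at least 2-fold lower, which at this depth cannot be read gene by gene.

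**Figure D5:**
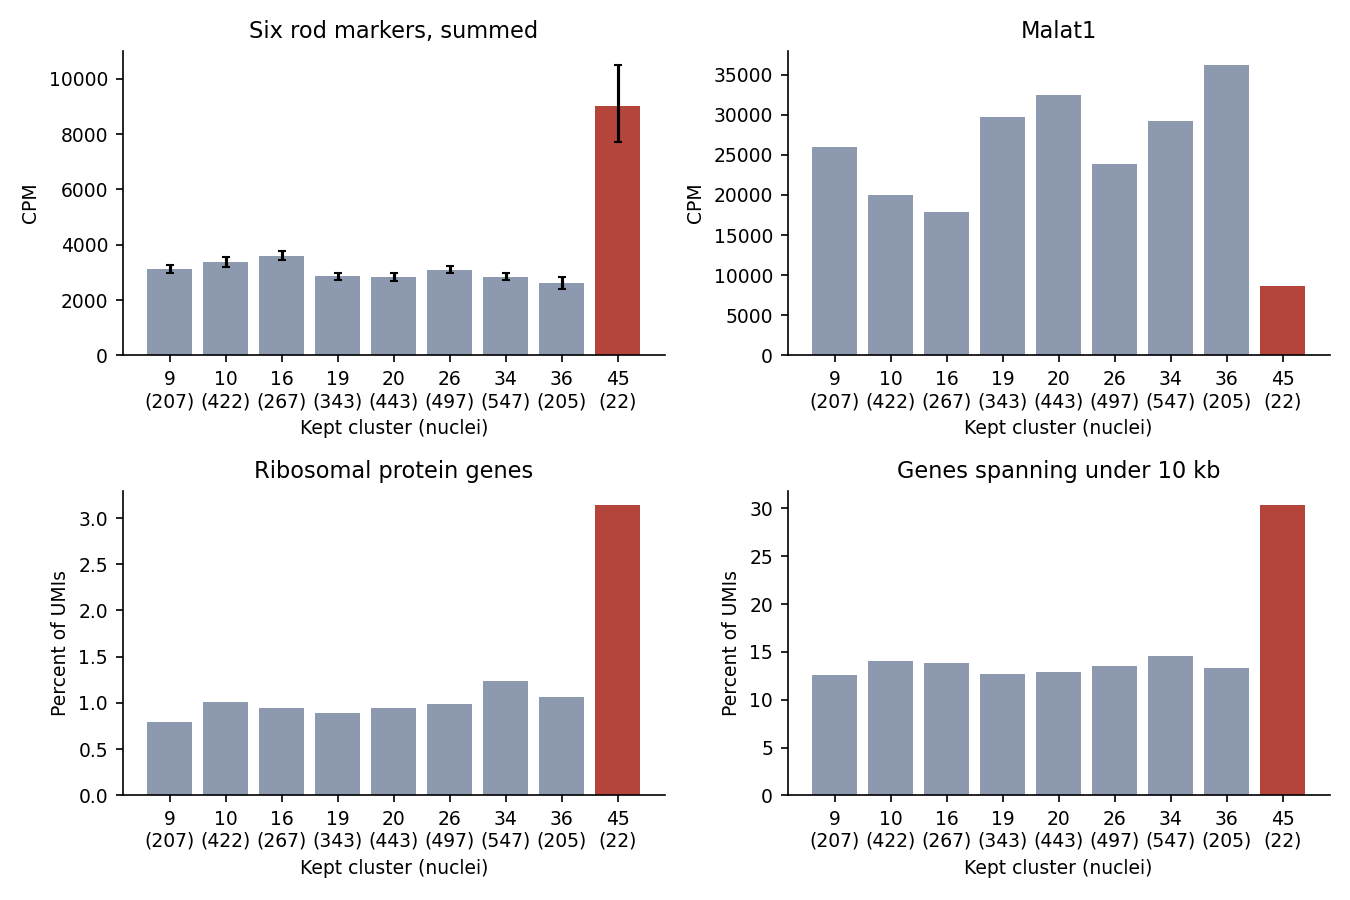
Summed level of the 6 rod markers (CPM, with 95% Poisson intervals), level of Malat1 (CPM) and shares of UMIs in ribosomal protein genes and in genes spanning under 10 kb, in each kept cluster with its number of nuclei. Cluster 45 (red) is high in all but Malat1, where it is lowest.

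Marker levels were slightly lower in deep than in shallow rod nuclei. The kept rods were split into 4 groups by UMIs, of 738 or 739 nuclei each. They include the 22 nuclei of cluster 45, with a median of 745 UMIs and 9024 CPM of summed markers. The part of cluster 45 in the differences below was not tested. Summed markers stood at 3262 CPM (3121 to 3408) in the shallowest, then 3066, 3069.7 and 3037 CPM (2959 to 3118) in the deepest. Each of the 6 markers was lower in the deepest than in the shallowest group, by log2 ratios of -0.038 (Reep6) to -0.23 (Vtn), and each of these intervals held 0, while the intervals of the summed markers in the 2 groups did not overlap. Of 2295 genes at 100 CPM or more, 0 differed by 2-fold. The lowest ratio of deepest to shallowest was that of Bex2, at 55.2 against 106 CPM, and the highest that of Clstn2, at 135 against 87.7.

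The Tet tcKO library held 6 rod-annotated nuclei, 2 of them in a kept cluster (45), so kept rods had no population to compare with there. Beside its 3231 nuclei annotated Rods or Cones, kept rods had 478 against 223 CPM of Nrl, 339 against 143 of Nr2e3 and 1025 against 266 of Cnga1. For the cone genes Arr3 and Opn1sw the values were 764 against 2002 and 78.0 against 653 CPM. Crx, used by both photoreceptor types, had 243 against 342. Genotype, library and cell type cannot be told apart in these values, and each library was 1 sample.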

How the data were processed

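Nuclei of whole retinas at postnatal day 21 were profiled with a PIPseq T20 kit (version 4.0). The authors aligned reads to GRCm39 with pipseeker 3.3.0, removed ambient RNA with CellBender, filtered nuclei by depth and mitochondrial percent, and clustered and annotated them with Monocle3. The deposited counts are whole numbers of UMIs for each gene in each nucleus, and their sums equalled the deposited totals in all 7357 Cre- nuclei. The deposited mitochondrial percent and cluster numbers were used as given. The authors' size factors, a ratio of each nucleus's total to a constant, and their mean normalized signal per genotype were not used. Whether counting used strand was not given in the sources used here.

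UMIs were summed per population and given as CPM with exact Poisson intervals, ratios of CPM with exact conditional intervals and shares with exact Clopper-Pearson intervals, all at 95% and covering counting error only. A ratio counted as 2-fold only for genes at 10 CPM or more in either population. Nuclei are not replicates and each genotype was 1 library, so no test was made and no p-value is given. Shares of nuclei were taken after thinning to 500 UMIs. The scripts were tested on simulated data. Python 3.11.15, numpy 2.4.6, scipy 1.17.1, pandas 2.3.3 and scanpy 1.11.5 (doublet scores) were used. Gene spans came from GENCODE on GRCm39, matched by gene identifier for 31681 of 32227 genes.

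The members, gene lists and motifs were chosen with earlier results of these data known. Genes are named because they stand on those lists, because they were among the 15 highest, 15 lowest or 15 most abundant in kept rods, because they were among the 3 leading genes of a cluster, or because they were at either end of the depth range. Alternatives changed the filter, the comparison population, the members, the counting of nuclei, the scaling, the depth and the doublets. Results of some genes are not reported here.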

Additional observations from a re-analysis of the deposited data

How the results depend on the processing

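The counts of genes past 2-fold against all other Cre- nuclei, 59 higher and 139 lower, depended on the filter and on the population compared. They were 704 and 830 at a minimum of 1 CPM and 8 and 56 at 50 CPM. They were 895 and 499 against nuclei annotated neither Rods nor Cones, 269 and 244 with all rod-annotated nuclei as members, 34 and 153 when a gene was counted at most once in a nucleus, 84 and 217 over nuclei with 1000 UMIs or more, 37 and 189 under TMM scaling and 32 and 197 under median-of-ratios scaling. The median log2 ratio of all genes was 0.092 as reported, 0.011 under TMM scaling and -0.020 when each gene was counted once per nucleus. Against non-photoreceptor nuclei the split of 895 higher and 499 lower became 505 and 640 when each gene was counted once per nucleus, 728 and 606 under TMM and 654 and 660 under median-of-ratios scaling.

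Medians of the rod lists kept their sign. Against non-photoreceptor nuclei they were 1.49 for the markers, 1.44 for phototransduction, 1.36 for recovery, 1.42 for the outer segment, 0.81 for the synapse and 0.76 for the cone list. Counting a gene at most once in a nucleus, they were 0.68 (markers), 0.42 (phototransduction), 0.48 (recovery) and 0.54 (outer segment). The marker median was 0.75 under TMM and 0.74 under median-of-ratios scaling, where phototransduction had 0.59 and recovery 0.60. With all rod-annotated nuclei as members, phototransduction had 0.81.

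On the same once-per-nucleus counting, the marker log2 ratios of clusters 9, 10, 16, 20, 36 and 45 over the other kept rods were -0.31, 0.29, 0.0066, -0.031, -0.031 and 1.25, and that of cluster 34 changed sign, to 0.13. Unthinned shares of nuclei with a marker UMI were 97.4% of kept rods and 52.9% of amacrine nuclei. Kept rods were 46.5% of nuclei with 1000 UMIs or more.

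Single genes that changed sign were near 0 or mitochondrial in most cases. Averaging nuclei singly gave -0.33 for mt-Co3, -0.29 for mt-Atp6, -0.19 for mt-Cytb, -0.25 for mt-Nd1, -0.19 for mt-Nd4, -0.26 for mt-Co2, 0.034 for Rims2, 0.043 for Syt1 and -0.025 for Glul. Counting once per nucleus gave -0.023 for Cdh23, -0.022 for mt-Co3, -0.016 for mt-Atp6, -0.0099 for mt-Cytb, 0.043 for Rorb, 0.064 for Rims2 and 0.026 for Syt1. With all rod-annotated nuclei as members, Gpi1 had -0.051, Cbx5 0.045, Prkca -0.016, Isl1 -0.094, Nefh 0.25 and Sncg 0.60. Sncg had 0.14 against non-photoreceptor nuclei. The ratio of mt-Co3 was -0.0086 under TMM, -0.02 under median-of-ratios scaling and -0.014 without cluster 34. The causes were not tested.

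Over 253 single genes and 12 alternatives, 2523 of 3033 log2 ratios stayed within the reported interval, 484 left it with the same sign and 26 changed sign. Leaving out cluster 45, an alternative chosen after the data were seen, moved 3 of them. Leaving out the 357 highest doublet scores, 206 of them kept rods, moved 6. No paired analysis was possible because each genotype was 1 library. Depth limits cluster 45 most, where 3 UMIs stand behind the level of Samd11.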
